A study of Mus musculus with 16 samples.

Results

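Chromatin that was accessible at the first and at the last stage of the CD8 path, but had no call in between or in the CD4 lineage, formed a small class of 3921 regions of 185978 (2.11%) in the thymus of adult mice. ATAC-seq, which reads out where a transposase can reach the DNA, was done on 16 samples, one from each of 4 stages of 4 wild type C57BL/6J mice of 9 weeks. No group carried a transgene, a deletion or a treatment. The stages were sorted by flow cytometry from lineage-negative cells as double negative (DN, without CD4, CD8 and CD3), double positive (DP, with CD4 and CD8), CD4 single positive (SP4, with CD4 and CD3) and CD8 single positive (SP8, with CD8 and CD3) cells, and the lineage antibodies removed erythroid, B, myeloid, dendritic, NK1.1+ and gamma delta TCR+ cells. The reads of the 4 mice of a stage were pooled before peaks were called, so that the data are 1 peak list per stage, without a spread between mice and without a test between stages. Overlapping peaks, by 1 bp or more, were joined across stages, and the members were chosen by the peak calls themselves, as joined regions with a DN peak and an SP8 peak and with neither a DP nor an SP4 peak. They are named DN+SP8 regions. The stages at which a region was called, and the heights of its peaks, are therefore no finding, whereas its sequence and its position relative to genes were not used in the choice.

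Thymocytes pass from the DN stage, where the T cell fate is fixed and *Tcrb* is rearranged, through the DP stage to positive selection, after which they become CD4 helper or CD8 cytotoxic cells. RUNX proteins are transcription factors that act at both ends of this path, as Runx1 and Runx3 silence *Cd4* in DN and CD8 cells and Runx3 directs the cytotoxic gene program. CTCF is an architectural protein that holds chromatin loops, ETS factors are general activators in blood cells, and E-proteins, which bind E-boxes, drive the early T cell program.

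The letters of the members on which the results turn are given first, as read from the GRCm38.p6 (mm10) assembly of RefSeq, 5′ to 3′ on the plus strand and with positions counted from 1. The height of a peak is given throughout as its percentile by fold enrichment over the local background within the list of its own stage. The 6 members with the highest values of the lower of their DN and SP8 percentiles are printed with 100 bp on each side of the higher summit. Capitals mark the RUNX letters TGTGGT on either strand, which read ACCACA when they lie on the other strand. The region toward *Eomes* held no such letters, the intron of *Grik4* held them 2 times and the other 4 held them once.
Region toward Eomes, chr9:118374775-118374975: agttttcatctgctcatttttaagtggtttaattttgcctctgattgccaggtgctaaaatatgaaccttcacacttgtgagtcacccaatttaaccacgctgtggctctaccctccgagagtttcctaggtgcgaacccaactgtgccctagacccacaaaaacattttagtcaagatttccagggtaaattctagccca
Intron of Tmeff2, chr1:51008423-51008623: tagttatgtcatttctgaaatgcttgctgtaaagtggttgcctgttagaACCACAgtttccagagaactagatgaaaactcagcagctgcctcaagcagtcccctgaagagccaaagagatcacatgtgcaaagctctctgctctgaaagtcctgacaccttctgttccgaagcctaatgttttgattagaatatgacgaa
Region toward Sod3, chr5:52296667-52296867: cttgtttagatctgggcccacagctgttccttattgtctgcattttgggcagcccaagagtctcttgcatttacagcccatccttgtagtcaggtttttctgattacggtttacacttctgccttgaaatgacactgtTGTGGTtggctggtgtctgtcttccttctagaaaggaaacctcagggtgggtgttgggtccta
Intron of Gpr45, chr1:42984198-42984398: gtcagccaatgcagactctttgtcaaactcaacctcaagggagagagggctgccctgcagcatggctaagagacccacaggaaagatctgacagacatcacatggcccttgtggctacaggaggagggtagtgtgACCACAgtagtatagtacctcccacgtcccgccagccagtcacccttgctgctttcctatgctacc
Intron of Grik4, chr9:42775472-42775672: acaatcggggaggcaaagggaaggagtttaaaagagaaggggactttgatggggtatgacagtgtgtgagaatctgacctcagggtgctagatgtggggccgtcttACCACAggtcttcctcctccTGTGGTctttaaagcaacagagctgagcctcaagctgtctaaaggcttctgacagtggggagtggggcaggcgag
Intron of Pdzrn3, chr6:101290307-101290507: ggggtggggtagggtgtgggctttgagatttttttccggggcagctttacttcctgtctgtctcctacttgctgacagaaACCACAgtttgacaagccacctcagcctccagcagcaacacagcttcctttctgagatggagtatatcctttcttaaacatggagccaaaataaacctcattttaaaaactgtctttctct

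Further members are printed with 30 bp on each side of the summit, to show where a match lay on it. They are the members whose match was nearest to the summit, ties taken by height, and capitals mark the named motif. The letters searched were TGTGGT for RUNX, CAGGAAG for ETS and CAGGTG for the E-box, on both strands, and a consensus of 12 positions for CTCF. At 25 members a RUNX match was centred 0.50 bp from the summit, the closest that a match of an even number of letters can be. The same distance was found for a CTCF match at 6 members and for a CAGGTG match at 10, and the centre of an ETS match fell on the summit at 3. The 2 RUNX examples were at percentiles 65.2 and 73.9 in the DN list and 67.8 and 51.3 in the SP8 list, as the highest of 25 ties. The 2 CTCF examples, the highest of 6 ties, were at 31.2 and 35.1 in the DN list and 39.6 and 31.0 in the SP8 list. The ETS example was high at DN (92.4) and low at SP8 (19.8), and the E-box example was higher at SP8 (63.8) than at DN (35.1).
RUNX match, region toward Galnt5, chr2:57905261-57905321: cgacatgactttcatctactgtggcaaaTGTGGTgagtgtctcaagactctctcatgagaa
RUNX match, region toward Tm2d1, chr4:98282413-98282473: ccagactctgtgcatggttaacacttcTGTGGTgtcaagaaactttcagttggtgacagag
CTCF match, region toward Gbp2, chr3:142646104-142646164: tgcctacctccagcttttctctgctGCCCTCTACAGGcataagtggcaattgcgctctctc
CTCF match, intron of Igf2bp3, chr6:49189528-49189588: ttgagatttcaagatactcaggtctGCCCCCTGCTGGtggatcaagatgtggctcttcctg
ETS match, intron of Ppp2r3a, chr9:101232165-101232225: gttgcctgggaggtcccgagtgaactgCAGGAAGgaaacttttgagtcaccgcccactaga
E-box match, intron of Ccdc170, chr10:4500845-4500905: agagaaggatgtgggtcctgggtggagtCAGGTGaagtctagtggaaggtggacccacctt

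DN+SP8 regions were one of the smaller classes, as the bars of regions by class show. They were 12.99% of the 30190 regions called at exactly 2 stages and 4.96% of the 79001 regions with both a DN and an SP8 peak. DN+SP4 regions, the class that differs from them by the kind of single positive cell, numbered 5197. DP+SP8 regions, which differ by the early stage, numbered 1268. The members held 2.63% of the 150139 DN peaks and 3.77% of the 104411 SP8 peaks, and the other lists held 107110 DP and 115074 SP4 peaks. By chromosome, the members were between 1.67% of the regions on chromosome 19 and 2.55% on chromosome 5.

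**Figure D1:**
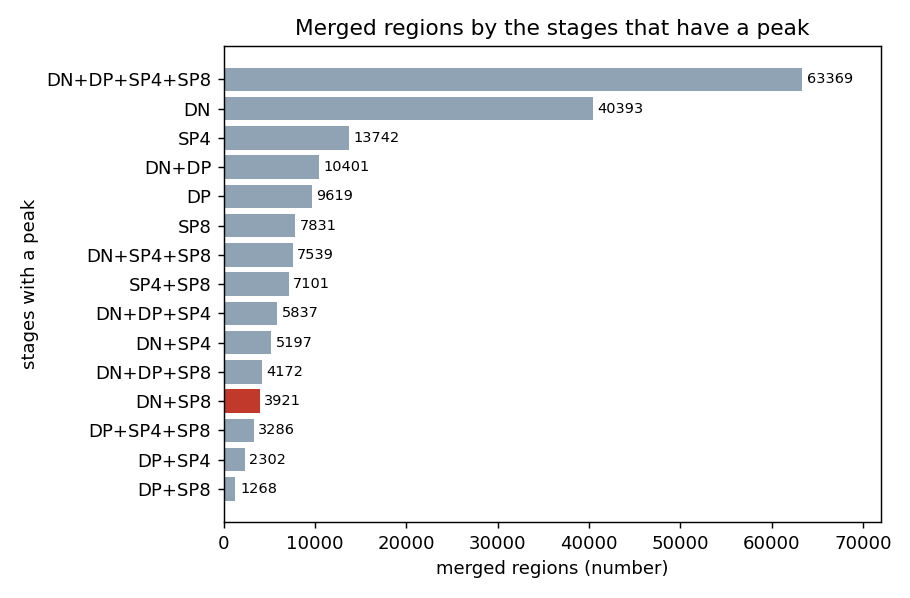
Number of merged regions (horizontal axis) for each set of stages that had a peak in the region (vertical axis). The DN+SP8 class, in red, held 3921 regions, fewer than the DN+SP4 class with 5197 and more than the DP+SP8 class with 1268.

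Both peaks of a member were low in their lists, which describes how the members were chosen and was not tested. The median percentile was 32.7 at DN and 23.7 at SP8, against 73.5 and 67.1 in the regions called at all 4 stages. The DN fold enrichment had a median of 4.28 and ran from 1.69 to 33.8, and the SP8 fold enrichment had a median of 3.93 and ran from 1.74 to 23.1. DN+SP4 regions had medians of 36.8 at DN and 26.5 at SP4, so that low heights were shared by both classes. The DN percentile was the higher one in 2476 members (63.1%). The 2 lists differ in length and in median fold enrichment (5.56 at DN and 6.11 at SP8), so their percentiles are not on the same scale. Across members the DN and SP8 percentiles went together with a Spearman rho of 0.41 (3921 regions of the same pooled lists), lower than the 0.68 of the 63369 regions called at all 4 stages. Both percentiles were above 50 in 242 members and above 75 in 32. In a pooled peak list, more cells with an accessible site and more accessibility per cell cannot be told apart.

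**Figure D2:**
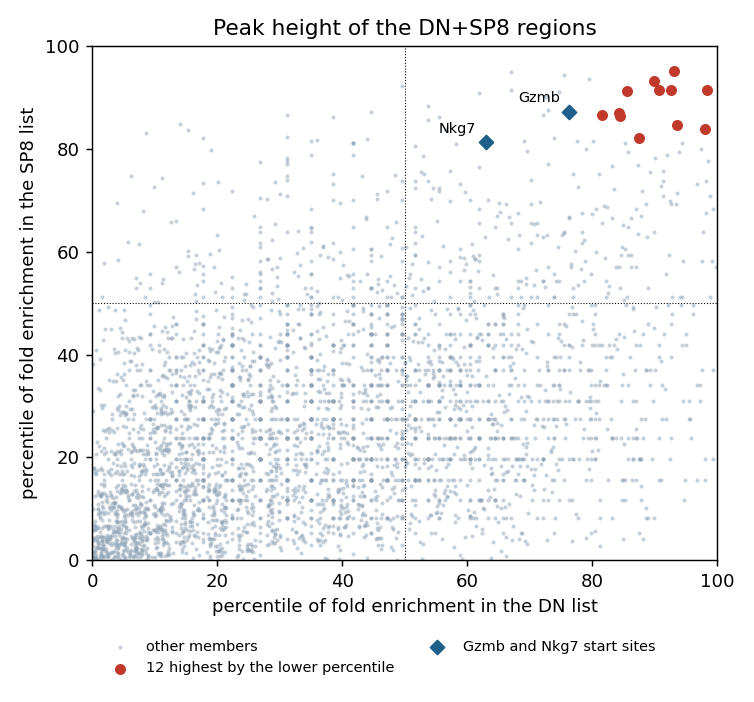
Each point is a DN+SP8 region, placed by the percentile of its peak's fold enrichment in the DN list (horizontal axis) and in the SP8 list (vertical axis), with dotted lines at 50. Most points lie at the lower left, 242 lie above both lines, and the 12 highest members (red) and the members over the start sites of *Gzmb* and *Nkg7* (blue diamonds) lie at the upper right.

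The 2 peaks of a member overlap by the rule, and in 2913 of 3921 members (74.3%) their summits were at most 50 bp apart. In 3881 members there was 1 DN peak and 1 SP8 peak, and over all members the median overlap was 119 bp. Over all members the summits were a median of 23 bp and at most 578 bp apart. The regions were narrow, with a median width of 203 bp, the same as for DN+SP4 regions and less than the 465 bp of regions called at all 4 stages. The nearest DP or SP4 peak was a median of 1667 bp away, yet 1530 members (39.0%) had one within 1000 bp and 233 within 100 bp. The rule has a threshold, because peaks were called at a q-value of 0.05. The members nearest to it had a weaker peak with a −log10 q of 1.40, 1.58 and 1.58, and the regions kept out by the narrowest margin had a strongest DP or SP4 peak with a −log10 q of 1.30, 1.33 and 1.34. In 18 members 1 of the 2 peaks had a q-value between 0.05 and 0.01, and 57 regions were kept out by DP or SP4 peaks that all lay in that range. A region without a call may hold signal under the threshold.

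The 12 highest members lay at mixed distances from the nearest protein-coding start, from 1859 bp (*Grik4*) and 3029 bp (*Gpr45*) to 190893 bp. The highest by the lower percentile, chr9:118374663-118375128, was at percentile 93.0 in the DN list and 95.1 in the SP8 list, with fold enrichments of 18.5 and 23.1. It was intergenic, 103058 bp from the start site of *Eomes*, which encodes a T-box factor of cytotoxic and natural killer cells, and the nearest DP or SP4 peak was 4023 bp away. An intron of *Tmeff2* followed (chr1:51008202-51008655, percentiles 92.7 and 91.5). The intergenic region chr5:52296412-52297066, with *Sod3* as the nearest protein-coding start, was higher at DN (98.4) than at SP8 (91.5), and the nearest peak of the other 2 stages was 35169 bp away. Introns of *Gpr45* (chr1:42984122-42984454, percentiles 90.7 and 91.5), *Grik4* (chr9:42775171-42775952, 89.9 and 93.1) and *Pdzrn3* (chr6:101290136-101290505, 85.6 and 91.3) completed the 6 printed above. The intronic *Pdzrn3* region was 69223 bp from the nearest DP or SP4 peak, the farthest of the 12.

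The next 6 were likewise mixed in their distance to gene starts. An intergenic region 6602 bp from the start of *Klri2*, a lectin-like receptor gene of natural killer cells, lay at chr6:129747086-129747652 (percentiles 93.5 and 84.6), with a DP or SP4 peak 715 bp away. The region chr11:79833894-79834160, in an intron of a transcript that is not protein-coding, had percentiles of 84.5 and 86.4. Intergenic regions at chr12:92703796-92704057 (84.3 and 86.9) and chr7:16680932-16681676 (98.0 and 83.8) followed, the latter 5227 bp from *Ceacam15* and 447 bp from a DP or SP4 peak. The last were an intron of *Faf1* (chr4:109857912-109858173, 87.4 and 82.1) and an exonic region at chr16:18910139-18910673 (81.6 and 86.5). The latter lay inside *Hira*, which encodes a histone chaperone, and inside the *Gm28539* gene model. The transcript to which the exon belongs was not read. Of the 12, the RUNX letters stood in 10 and were absent from the regions toward *Eomes* and *Klri2*.

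Sequences of the RUNX motif marked the class. TGTGGT stood within 100 bp of the summit in 1492 of 3921 DN+SP8 regions, or 38.1% (95% Wilson interval 36.5 to 39.6%, counting error only), against 25.3% of all regions in windows of the same width. The share was 32.8% in DN-only regions, 25.8% in SP8-only regions, 27.5% in DN+SP4 regions and 23.2% in regions called at all 4 stages. It was higher in the members than in each of these 5 groups on 19 of 19 chromosomes. Among the 15 classes of regions the members had the highest share, followed by DN+SP4+SP8 regions at 33.7% (interval 32.6 to 34.8%), and the lowest was 12.99% in DP+SP4 regions. By chromosome the share in members ran from 34.4 to 42.7%. A match is a description of the letters, not a binding site or a cause, the intervals do not account for regions that share a locus, and regions are not replicates of a stage.

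**Figure D3:**
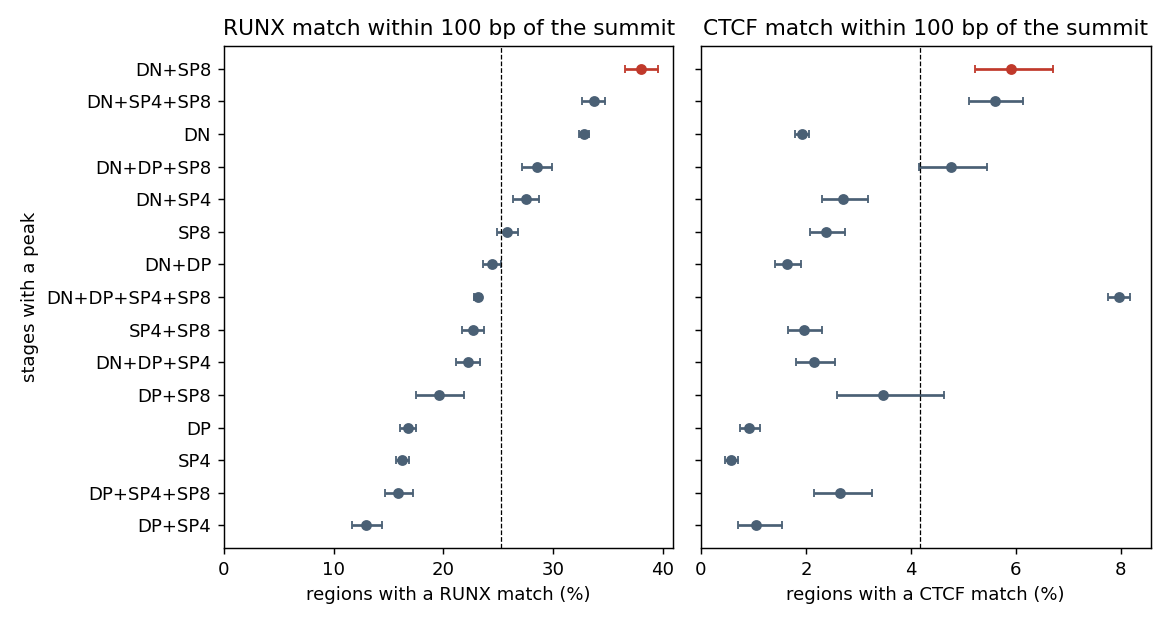
Share of regions (horizontal axes, %) with a RUNX match (left) and with a CTCF match (right) within 100 bp of the summit, for each of the 15 sets of stages (vertical axis), with bars for the 95% Wilson interval and a dashed line at the share over all regions. The DN+SP8 class, in red, had the highest RUNX share at 38.1% and the second highest CTCF share at 5.92%, after the class called at all 4 stages at 7.97%.

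Repeated RUNX letters were more of a mark than single ones. At least 2 matches were found in 344 members (8.77%), against 3.96% of all regions, 6.38% of DN-only, 3.82% of SP8-only and 3.87% of DN+SP4 regions. At least 3 were found in 49 members (1.25%), against 0.477% of all regions. The size of the difference varied with the letter that followed the core, a split that was made after the values were seen. TGTGGTC occurred in 10.9% of members and 5.15% of all regions, a ratio of 2.11, whereas with T, A or G as the next letter the ratios were 1.56, 1.48 and 1.36. For each of the 4 letters the members ranked first of the 15 classes. Since simple repeats can hold these letters, they were also counted only where no base was repeat-masked, which left 32.3% of members and 21.5% of all regions.

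RUNX matches were more frequent at the higher members. In 5 groups of members ordered by the lower of their 2 percentiles, the share with TGTGGT was 29.0% (interval 25.98 to 32.3%), 33.9%, 37.4%, 38.8% and 51.7% (48.1 to 55.2%). DN-only regions within the same percentile bounds, by their DN peak, had 26.1% in the lowest group, within the interval of the members, and 38.5% in the highest group, below it. DN+SP4 regions went from 21.5 to 30.4%, SP8-only regions from 21.7 to 34.3% and regions called at all 4 stages from 17.4 to 24.0%. The difference between members and each of these classes was larger in the highest than in the lowest group. The groups share percentile bounds, but the classes were not matched on height. SP8-only regions were placed by their SP8 peak, DN+SP4 regions by the lower of their 2 percentiles and 4-stage regions by the lower of DN and SP8. The highest group, above 34.1, held 49603 of the 63369 regions called at all 4 stages. For the CTCF, ETS and E-box letters, the shares of members in the lowest and the highest group were 4.84 and 5.86%, 14.0 and 15.3%, 16.3 and 14.6% (CAGCTG) and 19.9 and 14.0% (CAGGTG).

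**Figure D4:**
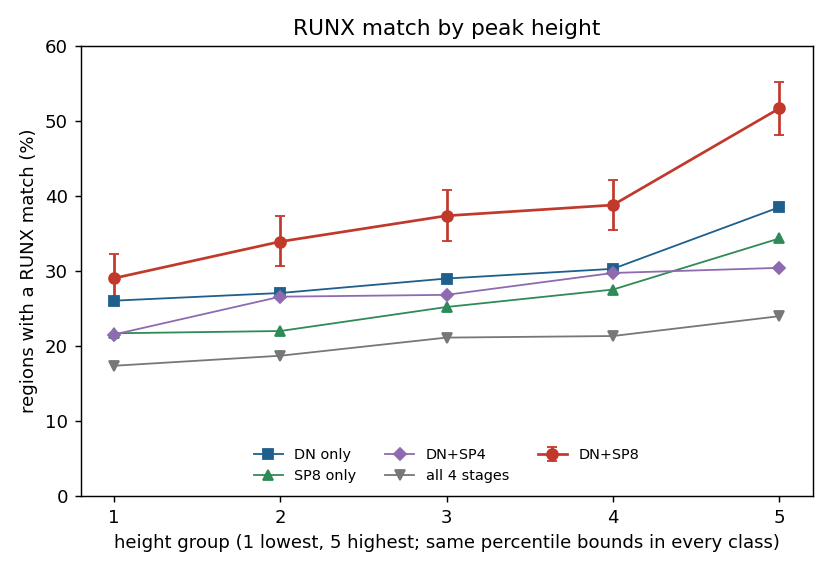
Share of regions with a RUNX match (vertical axis, %) in 5 height groups (horizontal axis, from low to high) with the same percentile bounds in each class. Bars give the 95% Wilson interval of the DN+SP8 regions, whose share (red) was 29.0% in the lowest and 51.7% in the highest group and lay above the 4 other classes in each group.

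The RUNX letters also lay close to the summits. The centres of the 1928 matches in members were a median of 35.5 bp from the summit, against 40.5 bp over all regions, 38.5 bp in DN-only, 38.5 bp in SP8-only and 41.5 bp in DN+SP4 regions. Within 10 bp of the summit there were 7.55 matches per 100 members and 3.96 per 100 of all regions, and between 80 and 90 bp there were 3.03 and 2.35. The difference from all regions was thus larger next to the summit, the base of highest signal, than at the edge of the window.

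**Figure D5:**
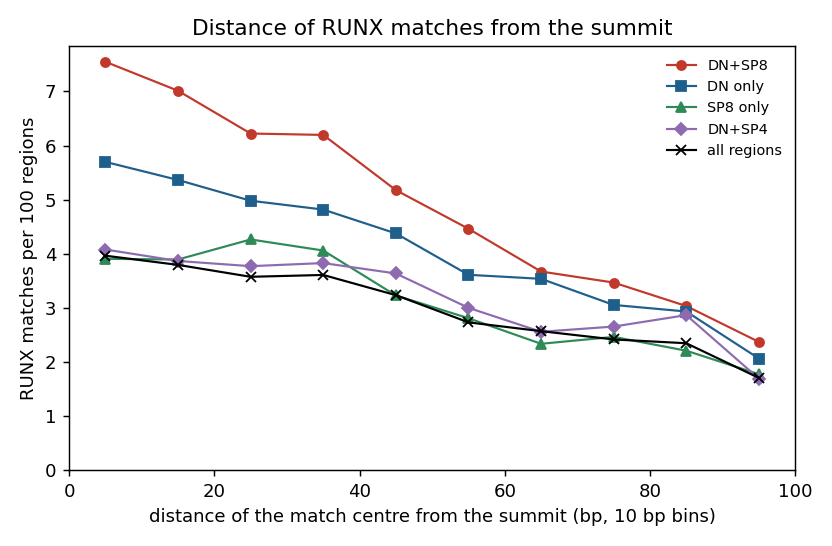
RUNX matches per 100 regions (vertical axis) by the distance of their centre from the summit (horizontal axis, bins of 10 bp, the last of which is cut short by the window). The DN+SP8 line (red) falls from 7.55 in the first bin to 3.03 between 80 and 90 bp, and the line of all regions (black) from 3.96 to 2.35.

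The RUNX share was above that of all regions in each kind of place in genes. At promoters 22.7% of the members held TGTGGT, against 13.1% of all regions at promoters. The shares were 32.5 and 24.0% in exons, 41.3 and 27.7% in introns and 37.6 and 27.2% between genes. GC content had a median of 49.8% in the windows of members, 50.7% over all regions and 48.8% in DN+SP4 regions. Repeat-masked bases made up a mean of 16.4% of the window in members, 14.0% over all regions and 19.5% in SP8-only regions.

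CTCF letters were also more frequent in the members than in all regions. They were found in 232 members (5.92%, interval 5.22 to 6.70%), against 4.18% of all regions, 1.93% of DN-only, 2.39% of SP8-only and 2.71% of DN+SP4 regions, and in 7.97% of regions called at all 4 stages. The share in members was higher than in all regions on 15 of 19 chromosomes, than in DN-only regions on 18 of 19 chromosomes, than in SP8-only regions on 17 and than in DN+SP4 regions on 16. DN+SP4+SP8 regions, at 5.60%, lay within the interval of the members. Both CTCF and RUNX letters occurred in 28 members, and CTCF was present in 1.88% of members with a RUNX match and 8.40% of those without one. The median distance of a CTCF match from the summit was 26.5 bp in members and 54.5 bp over all regions, but 27.5 bp in DN-only and 23.5 bp in SP8-only regions.

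ETS and E-box letters were less frequent in the members than in all regions. CAGGAAG was found in 14.3% of members (interval 13.3 to 15.5%) and 20.7% of all regions, lower on 19 of 19 chromosomes, and the members ranked 14th of the 15 classes. DN+SP4 regions held it in 23.9%, and SP8-only regions in 12.4%. For both E-boxes the members lay between the DN-only and the SP8-only regions. CAGCTG stood in 15.1% of members, 18.3% of all, 23.8% of DN-only and 9.93% of SP8-only regions, and the members ranked 8th of the 15 classes. CAGGTG stood in 17.2%, 23.3%, 29.2% and 14.6%, and the members ranked 10th. DN+SP4 regions, at 15.4 and 17.4%, lay within the intervals of the members for both. The letters AAANNGAAA of interferon regulatory factors occurred in 9.67% of members and 7.76% of all regions, higher on 18 of 19 chromosomes, while DN+SP4 regions had 9.52%. The AP-1 letters TGANTCA occurred in 8.19% of members (interval 7.37 to 9.09%) and 7.21% of all regions, higher on 14 of 19 chromosomes, and in 9.03% of SP8-only regions. The TCF7/LEF1 letters CTTTGA were in 16.2% of members and 16.04% of all regions. For the GATA letters AGATAA the shares were 8.52 and 8.11%. The NFAT letters TGGAAA stood in 13.9 and 13.2%, and for each of these 3 the share of all regions lay within the interval of the members. In 1283 members (32.7%) none of the RUNX, CTCF, ETS and E-box letters was found, which says only that these letters were not in the window.

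All 6-letter words were then counted, with both strands as 1, a scan that was added after the motif shares had been seen. Only words found in at least 5% of the regions that the members were compared with were ranked. Against all regions the word with the largest ratio was GACCAC, in 17.3% of members and 9.39% of regions (ratio 1.84), followed by TGACCA (10.8 and 7.06%) and by the RUNX core itself (ratio 1.51). Among the words ranked against DN+SP4 regions GACCAC was again first, at 17.3 against 6.58% (ratio 2.63). It was followed by GCCCCC (14.8 and 7.23%) and TGACCA (10.8 and 5.31%). The word GACCCC had a slightly larger ratio, at 7.55% of members and 2.85% of DN+SP4 regions, but was too rare in the latter to be ranked. It stood in 6.73% of all regions. For GCCCCC the share of all regions was 13.7% and that of SP8-only regions 14.9%, so that the members were near the background and the DN+SP4 regions below it. GACCAC overlaps the RUNX core in TGTGGTC. The whole word was not particular to the members (interval 16.1 to 18.5%), as DN+DP+SP8 regions held it in 15.96% (14.9 to 17.1%). Counted only outside TGTGGTC, it stood in 7.19% of members (interval 6.42 to 8.04%), 2.62% of DN+SP4 regions and 4.47% of all regions. DN+DP+SP8 regions were above the members in this count, at 8.60%. The share was between 1.78 and 4.55% in the 8 classes with an SP4 peak and between 4.98 and 8.60% in the 7 classes without one. The shares of the 2 sets of classes thus did not overlap, but the intervals at the boundary did. They were 4.39 to 4.72% for regions called at all 4 stages and 4.56 to 5.43% for DP-only regions. The word was picked by the scan of these same regions, and the split was not tested.

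Few DN+SP8 regions were promoters. A promoter, taken as the 200 bp upstream of a transcriptional start site (TSS), overlapped 203 members, or 5.18% (interval 4.53 to 5.92%), against 12.4% of all regions and 25.2% of regions called at all 4 stages, and the share was below that of all regions on 19 of 19 chromosomes. DN+SP4 and DN-only regions, at 5.43 and 5.86%, lay within the interval of the members, and SP8-only regions, at 3.69%, lay below it. Exons without a promoter held 14.1% of the members, introns 52.4% and intergenic sequence 28.3%. The nearest TSS of any transcript was a median of 5517 bp away, against 5134 bp over all regions and 6314 bp for DN+SP4 regions, and the nearest TSS of a protein-coding transcript 14652 bp. Where that protein-coding TSS lay outside the member, the state of its gene was read over all protein-coding TSSs of the gene. For 76.4% of such members the gene had a TSS, not always the nearest, in a region called at all 4 stages. This was close to the 74.7% found in the same way for all regions.

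Among the few members over start sites were those of cytotoxic genes. A member covered a TSS of 92 of 23165 protein-coding genes (0.397%), and of 4 of the 24 genes of the CD8 and cytotoxic list (16.7%). They were *Gzmb* and *Gzmk*, which encode granzymes, *Nkg7*, which encodes a protein of cytotoxic granules, and *Itgae*, which encodes the CD103 integrin chain of CD8 cells that home to epithelia. For each of the 4, no TSS was covered by a region of another class. In the CD4 helper, DN progenitor, DP, gamma delta, egress, interferon, cytokine receptor and TCR signalling lists the count was 0, and in the integrin and TGF-beta list it was 1 of 15, again *Itgae*. These counts describe the lists, no test was made of them, and the genes were singled out after the values were seen.

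The members at *Gzmb* and *Nkg7* were the first and the third by height among all members over a protein-coding TSS. The *Gzmb* member (chr14:56262152-56262540) was at percentile 76.3 in the DN list (fold enrichment 10.2) and 87.2 in the SP8 list (16.8), with summits 3 bp apart and the nearest DP and SP4 peaks 25377 and 13386 bp away. The *Nkg7* member (chr7:43436767-43437203) was at 62.9 (7.29) and 81.4 (13.9), but a DP peak lay 215 bp from it. *Fam193a* was second, at 74.7 and 91.0, and *Plac8* and *Ccl3*, the latter encoding a chemokine of cytotoxic cells, came next, at 60.8 and 61.4 and at 73.9 and 51.3. The *Gzmk* member (chr13:113225850-113226196) was lower, at 40.01 in the DN list and 34.1 in the SP8 list, and the *Itgae* member (chr11:73090450-73090692) was at 23.7 and 44.8. *Ccl5*, another chemokine gene of cytotoxic cells, had 3 members within 50 kb, the most of any gene of the list, and the closest to its TSS lay 4504 bp upstream (chr11:83535022-83535401, 30.1 and 58.7), with an SP4 peak 281 bp from it. Its most distant member was at 95.6 in the DN list and 27.5 in the SP8 list. A member 7813 bp downstream of the start of *Ifng*, the interferon gamma gene, was at 49.5 and 47.9. The windows of *Gzmb*, *Nkg7* and *Ccl5* are printed as cytotoxic members picked for holding RUNX letters, with capitals for TGTGGT on either strand, and held 2 (*Gzmb*), 1 (*Nkg7*) and 3 (*Ccl5*) matches. The *Nkg7* window covered the start site, while the *Gzmb* window lay just upstream of it.
Member over the Gzmb start, chr14:56262307-56262507: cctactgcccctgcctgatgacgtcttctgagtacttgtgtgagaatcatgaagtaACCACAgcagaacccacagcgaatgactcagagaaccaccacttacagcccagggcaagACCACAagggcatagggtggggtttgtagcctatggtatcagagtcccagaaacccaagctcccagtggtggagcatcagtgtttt
Member over the Nkg7 start, chr7:43436950-43437150: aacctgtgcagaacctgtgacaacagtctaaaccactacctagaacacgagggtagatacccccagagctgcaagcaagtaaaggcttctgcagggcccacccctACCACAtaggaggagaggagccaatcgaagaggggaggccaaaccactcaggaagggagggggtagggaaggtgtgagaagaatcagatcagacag
Member upstream of Ccl5, chr11:83535101-83535301: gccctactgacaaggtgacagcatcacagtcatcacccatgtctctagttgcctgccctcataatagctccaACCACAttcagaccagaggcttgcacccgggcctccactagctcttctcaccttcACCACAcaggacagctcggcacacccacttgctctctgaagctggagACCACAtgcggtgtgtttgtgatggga

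Around the 24 cytotoxic genes, within the gene or 50 kb of it, lay 13 members of 586 regions (2.22%, interval 1.30 to 3.76%), close to the 2.11% over all regions, at 10 of the 24 genes. Neither *Cd8a* nor *Cd8b1* had a member. Of the 13, 7 held a RUNX match, against 38.1% of all members. Of the 4 over a start site the *Gzmk* member held none, and over all protein-coding TSSs 16 of 88 members (18.2%) held one. The member in *Runx3* was the weakest at SP8, at percentile 48.8 in the DN list and 0.0354 in the SP8 list, with a DP peak 284 bp away. The members of *Eomes* (16.8 and 9.68) and of *Gzmm* (11.3 and 7.09), another granzyme gene, were low in both lists and lay 91 and 44 bp from the nearest SP4 or DP peak.  In the sort, NK1.1+ and gamma delta TCR+ cells were removed, but granzymes, *Nkg7* and *Ccl5* are also expressed by natural killer and innate-like T cells. A member covered the TSS of none of the 10 natural killer markers, but that list did not include *Gzmb*, *Gzmk*, *Nkg7* or *Itgae*. Of the 10, 6 had a peak over a TSS in the DN list and 6 in each of the other lists. Of the 14 gamma delta and innate-like genes 10 had one at DN and 9 at each other stage. The part of such cells in these members was not tested.

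The remaining lists were near or below the background. The share of members among the regions within 50 kb was 1.25% for CD4 helper genes (7 of 560), 1.69% for DN progenitor genes (12 of 710), 0.806% for DP genes (4 of 496), 1.80% for gamma delta and innate-like genes (7 of 388) and 1.52% for egress genes (7 of 461). It was 2.03% for interferon genes (8 of 395), 0.882% for integrin and TGF-beta genes (5 of 567), 1.41% for cytokine receptor genes (8 of 566) and 1.32% for TCR signalling genes (8 of 607). All 9 intervals except those of the DP and the integrin and TGF-beta lists included 2.11%. By gene, *Ctla4*, which encodes an inhibitory receptor, had 4 members and *Ptcra*, which encodes the pre-TCR alpha chain, had 3. *Bcl2*, a survival gene, had 3, and *Zbtb16*, which encodes the PLZF factor of innate-like T cells, had 3, of which the one in an intron at chr9:48783398-48783755 was at 78.4 in the DN list and 61.7 in the SP8 list. *Il23r*, a receptor gene of type 17 cells, had an intronic member at 94.0 and 51.3 (chr6:67431736-67432121). *Oasl2*, *Il4ra* and *Ifnar1* had 2 each. In the DP, the integrin and TGF-beta and the TCR signalling lists no gene had more than 1.

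Markers of cells that a thymocyte gate could let through were read against the same 2.11%. The shares were 1.74% for B cells (4 of 230 regions), 1.51% for myeloid (4 of 265), 1.15% for erythroid (2 of 174), 1.71% for dendritic (5 of 292), 1.93% for natural killer (4 of 207) and 2.21% for thymic epithelial cells (4 of 181). The intervals of these 6 lists included the background. The shares were highest for fibroblast (7 of 142, 4.93%, interval 2.41 to 9.83%) and endothelial markers (8 of 254, 3.15%, 1.60 to 6.09%), and the interval of the fibroblast list lay above the background. In the fibroblast list 4 of the 7 lay near *Thy1*, which T cells express too, and in the endothelial list 3 lay in *Pecam1*. *Pax5*, *Elane*, *Epor* and *Klre1* had 2 each, and so had *Aire* and *Prss16*. At no gene of these lists was a TSS covered by a member. The part of such cells was not tested.

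The genes with most members in their body were long genes. The *Gm20388* gene model, which spans 4434882 bp, held 27 of 1136 regions (2.38%). *Ankrd11*, which encodes a chromatin regulator and lies inside the span of *Gm20388*, held 7 of 76 (9.21%). *Bach2*, which encodes a repressor that restrains effector T cells, held 6 of 131 (4.58%), *Zfhx3* 6 of 102 and *Pde4d* 6 of 141. The *Fgfr2* gene model, which spans 2960900 bp, held 6 of 323. *Babam2*, *Grik4* and *Jmjd1c* held 5 each, of 50, 57 and 34 regions. These genes were picked for their counts, so the shares are a description. The members were otherwise scattered, as 3475 of them had no other member within 10 kb, 199 runs held 2 and 16 runs held 3.

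The stage labels were set against the start sites of 9 marker genes, each read at the outer start of its gene model only. At 8 of them a peak covered this TSS in all 4 lists, and at *Zbtb7b* there was none in any. Other start sites of *Zbtb7b* were not read in this check. The *Cd8a* start was at percentile 71.4 (DN), 56.1 (DP), 18.7 (SP4) and 70.7 (SP8), and the *Cd4* start at 37.2, 16.1, 16.5 and 5.60. *Cd8a* was thus lowest in the cells without CD8 that had matured. Both *Cd8a* and *Cd4* were highest in the DN list, against their surface markers. None of the 9 start sites lay in a DN+SP8 region.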

How the data were processed

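The 16 ATAC-seq libraries were trimmed, aligned to mm10 with BWA, stripped of duplicates with Picard, filtered (mapping quality at least 30, proper pairs, unique) and down-sampled by the authors to the median depth before the 4 mice of a stage were pooled and peaks called with MACS2 at 5% FDR. No read counts were used here, so no depth is given. The score, the fold enrichment (a ratio over local background) and the −log10 p and q-values were deposited by the authors as MACS2 gave them; the score and p were not used. Of 476734 peaks, 0 passed the end of their chromosome in GRCm38.p6.

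Peaks sharing 1 bp were merged (Python 3.11.15, pandas 2.3.3, pysam 0.24.0). TSSs (194268) came from GENCODE M21 and RefSeq. Motifs (29) and 18 gene lists were matched as in the report, the CTCF consensus by exact letters. The members and lists were chosen with earlier results of these data known. Named members and genes follow rules: the 12 highest, the 10 genes with most members and, per list, the genes with most members; exceptions are marked, and some genes the rules name are not reported here. Intervals cover counting error only. The scripts were tested on simulated data.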

Additional observations from a re-analysis of the deposited data

How the results depend on the processing

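No paired analysis was possible because the 4 mice of a stage were pooled before peaks were called, and leaving out a mouse could not be done for the same reason. Of 94 values under 13 alternatives, 60 stayed within the interval of the reported value (counts within 1.5 times) and 34 moved. RUNX was higher in members than in all regions in 10 of 10 alternatives (ratio 1.33 to 1.76) and CTCF in 9 of 9, and ETS, both E-boxes, promoters and GC content were lower in each.

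With equal list lengths there were 2535 members, at median percentiles of 52.9 (DN) and 27.5 (SP8), with promoters at 5.92%, RUNX at 43.9% and CAGCTG at 16.3%. Without a DP or SP4 peak within 1000 bp there were 2391, at 40.6 and 27.5, with promoters at 3.64%, a TSS distance of 6872 bp, RUNX at 42.2%, CTCF at 7.24%, ETS at 16.1% and 6 members near cytotoxic genes, *Nkg7* no longer among them. With summits at most 50 bp apart the percentiles were 35.1 and 24.9 and 7 members lay near cytotoxic genes. The SP8 percentile was 24.7 at a q-value of at most 0.001 and 19.6 when ranked by q-value. Promoters were 11.7% with 1000 bp and 2.88% with protein-coding TSSs, for which the distance was 14652 bp. Within 50 bp of the summit the shares were 26.5% (RUNX), 3.37% (CTCF), 9.59% (ETS), 9.08% (CAGCTG) and 10.3% (CAGGTG), and over whole regions 41.4% (RUNX), 15.99% (ETS), 17.1% and 20.3%, with a GC content of 50.2%. Unmasked RUNX letters, an alternative chosen after seeing the data, gave 32.3%. The read depth of the lists was not used here, so a stage without a call cannot be told apart from one with signal under the threshold.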
